A study of Mus musculus with 8 samples.

Results

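The genes described here are 7 that are characteristic of mature neutrophils: Cxcr2, Csf3r, Il1r2, Trem1, S100a8, S100a9 and Retnlg. They were read on arrays of cells sorted as inflammatory monocytes and macrophages. Each of the 7 symbols had 1 probe set that the platform's annotation gives to that symbol alone, so all 7 of 7 were measured, among 22180 genes in all. They were selected on their log2 levels on these same 8 arrays and on how those levels went together, with earlier results known, and every value of theirs is given as a description, without a test.

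The arrays were made from 8 female C57BL/6 mice, 8 weeks old, each bearing a subcutaneous tumour grown for 14 days from cell line 152. This single line came from a spontaneous pancreatic tumour of a mouse with the alleles KrasLSL-G12D/+, Trp53LSL-R172H/+ and Pdx1-Cre, in which Cre is driven by the Pdx1 promoter; it serves as a transplantable model of pancreatic cancer. The tumours of 4 mice received 20 Gy and those of 4 mice a sham treatment. On day 1 after treatment CD45+ CD11b+ Ly6Chi cells were sorted from each tumour, and the RNA of 1 mouse went onto 1 Affymetrix array. Levels are log2 values, on which a step of 1 is a doubling, and one gene's level cannot be set against another's because probe sets differ in brightness.

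Neutrophils are short-lived granulocytes made in the bone marrow. The growth factor G-CSF drives their production through its receptor, encoded by Csf3r, and chemokines that bind CXCR2 release them into the blood and draw them into inflamed tissue and tumours. Granule proteins such as myeloperoxidase and cathelicidin are transcribed in precursors and mostly shut off as the cell matures, while the genes described here stay on or come on late. Mature mouse neutrophils carry CD11b and the antigen Ly6G, with less Ly6C than inflammatory monocytes. Several of the 7 genes are also transcribed by monocytes, above all S100a8, S100a9, Csf3r and Trem1.

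The genes lie on 5 chromosomes, so that only 1 pair can share local sequence. S100a8 (chromosome 3, 90669071 to 90670034) and S100a9 (chromosome 3, 90692630 to 90695721) are neighbours, separated by 22595 bases with 0 annotated genes wholly between them. Cxcr2 (74153994 to 74161246) and Il1r2 (40084692 to 40125230) lie on chromosome 1 but far apart, Csf3r on chromosome 4 (126023441 to 126044975), Retnlg on chromosome 16 (48872608 to 48874498) and Trem1 on chromosome 17 (48232713 to 48246927), all in RefSeq's annotation of GRCm38.p6. RefSeq promoters, running from 250 bases before to 50 after the start of transcription, were found for all 7. They were searched on both strands for TTGCNNAA, a form of the site of C/EBP factors, which direct granulocyte genes, and for GAGGAAGT, a form of the site of PU.1, a myeloid factor. The first was found in 2 of the 7, Retnlg and S100a9, against 10.8% of 32851 promoters of this length, and the second in 1 of the 7, S100a8, against 3.20%. The 250 bases upstream of these 3 genes are shown because they hold the only matches; the capitals mark the match, the strand is that of the gene, and a match is a description of letters and not a bound site.
S100a8, chr3:90668821-90669070, plus strand: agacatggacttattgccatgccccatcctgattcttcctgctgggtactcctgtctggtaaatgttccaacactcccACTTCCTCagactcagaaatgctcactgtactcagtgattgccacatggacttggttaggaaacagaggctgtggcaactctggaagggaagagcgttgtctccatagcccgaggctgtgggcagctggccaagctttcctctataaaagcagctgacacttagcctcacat
S100a9, chr3:90695722-90695971, minus strand: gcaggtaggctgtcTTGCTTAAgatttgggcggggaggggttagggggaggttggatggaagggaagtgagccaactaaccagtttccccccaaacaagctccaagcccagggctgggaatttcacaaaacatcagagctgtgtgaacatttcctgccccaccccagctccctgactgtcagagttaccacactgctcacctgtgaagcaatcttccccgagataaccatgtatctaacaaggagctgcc
Retnlg, chr16:48872358-48872607, plus strand: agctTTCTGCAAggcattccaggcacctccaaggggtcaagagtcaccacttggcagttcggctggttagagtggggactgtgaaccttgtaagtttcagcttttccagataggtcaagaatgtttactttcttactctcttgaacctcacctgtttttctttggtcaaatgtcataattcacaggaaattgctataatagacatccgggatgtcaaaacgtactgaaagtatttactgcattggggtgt
In S100a8 the capitals are the PU.1 form on the opposite strand, 172 bases before the start. In S100a9 they are the C/EBP form, 236 bases before the start, and in Retnlg the C/EBP form on the opposite strand, 246 bases before it. The letters searched were not in the promoter windows of Cxcr2, Csf3r, Il1r2 and Trem1. For Csf3r (126024409 to 126024658) and Il1r2 (40085843 to 40086092) the upstream window lay inside the gene's span given above. Bases before the first base of that span were not searched for these genes.

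The array medians lay between 4.68 and 4.73 and the arrays correlated with one another at 0.976 to 0.988 over all 34365 probe sets. Each of the 7 genes had a mean above 4.70, the median of all values; signal over background was not available. Ly6g, the gene of the antigen that defines mouse neutrophils, was read beside the set. Ly6g stood at 4.98, 4.52, 5.22 and 4.44 in sham mice 1 to 4 and at 3.79, 3.63, 5.39 and 4.94 in irradiated mice 1 to 4, above that median on 4 of the 8 arrays. Its Pearson r was 0.365 with the mean of the 7 genes and 0.24 with Cxcr2 (n = 8, a description), and its SD ranked 372 among all genes. Ly6g thus did not bear out the label of the set, and at so dim a level it cannot settle whether the label holds. That label names what the genes are known for and not a counted neutrophil fraction of the sort. The defining transcript of the gate, Ly6c2, stood at 11.03 to 11.98 in sham mice and 10.77 to 12.45 in irradiated mice. Over the 8 arrays it ran opposite to the mean of the 7 genes, at r = -0.89 (a description).

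The receptor genes came in a few distinct patterns. Cxcr2, the receptor of neutrophil-attracting CXC chemokines, stood at 9.72, 6.95, 7.40 and 9.35 in sham mice 1 to 4 and at 6.32, 9.05, 10.04 and 6.69 in irradiated mice 1 to 4. The arrays left a gap between 7.40 and 9.05: sham mice 1 and 4 and irradiated mice 2 and 3 lay above it and the other 4 below it, so that each group had 2 mice on either side and the groups overlapped over most of their range. From the lowest to the highest array Cxcr2 spanned 3.72 on the log2 scale, or 13.2-fold. Its SD over the 8 arrays ranked 25 among the 22180 genes. In sorted bulk RNA, more cells of a type and more RNA per cell cannot be told apart.

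Csf3r, the G-CSF receptor gene, stood at 9.19, 8.17, 8.07 and 9.10 in sham mice 1 to 4 and at 8.29, 8.79, 9.74 and 8.18 in irradiated mice 1 to 4. The same 4 arrays were the high ones as for Cxcr2, over a narrower span of 1.67. Il1r2, which encodes a decoy receptor that binds interleukin 1 without signalling, stood at 10.98, 9.93, 9.26 and 10.93 in sham mice and at 9.57, 10.53, 10.92 and 9.26 in irradiated mice. Its 4 highest arrays were again sham mice 1 and 4 and irradiated mice 2 and 3, although sham mouse 2 lay between those and the lowest arrays. Trem1, a receptor that amplifies inflammatory signals through the adaptor DAP12, stood at 10.17, 10.04, 9.53 and 10.40 in sham mice and at 10.09, 10.09, 10.25 and 9.98 in irradiated mice. It was the least variable of the 7: its span was 0.86, or 1.82-fold, and its SD ranked 6122 among all genes, with sham mouse 3 the lowest array.

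S100a8 and S100a9, which encode cytosolic and secreted proteins, shared another pattern. S100a8, whose product joins that of S100a9 to form the calcium-binding alarmin calprotectin, stood at 12.18, 11.37, 12.21 and 11.88 in sham mice 1 to 4 and at 10.19, 11.92, 12.31 and 9.77 in irradiated mice 1 to 4. S100a9 stood at 12.09, 11.16, 11.81 and 11.75 in sham mice and at 9.93, 11.68, 12.10 and 9.87 in irradiated mice. For both genes 6 arrays lay near one another and irradiated mice 1 and 4 lay more than a doubling below the lowest sham mouse; irradiated mice 2 and 3 lay within or above the sham range. Sham mouse 3, low for Cxcr2, was high for both S100 genes. Retnlg, which encodes the resistin-like protein gamma of marrow and neutrophils, stood at 7.80, 6.65, 7.20 and 7.31 in sham mice and at 4.77, 6.01, 8.31 and 6.28 in irradiated mice. It was lowest in irradiated mouse 1 and highest in irradiated mouse 3, a span of 3.54 on the log2 scale within the irradiated group that contains the whole sham range. Unlike the S100 genes it was below every sham mouse in irradiated mouse 2 as well, at 6.01, under irradiated mouse 4 at 6.28.

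**Figure D1:**
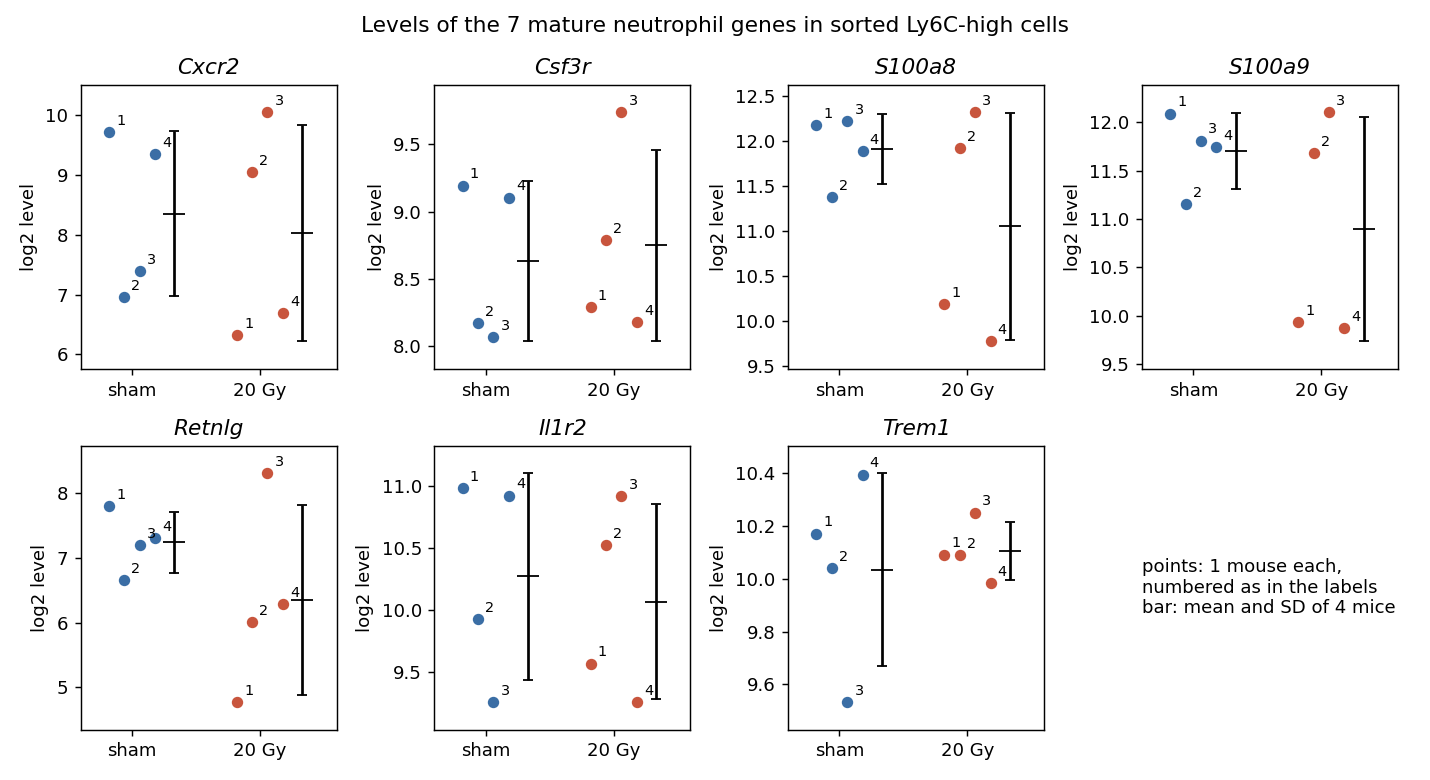
Log2 levels of the 7 genes (y axis, one panel per gene, each with its own scale) in sham mice and mice whose tumours received 20 Gy; points are mice numbered as in the labels, and bars are the mean and SD of 4 mice. Cxcr2, Csf3r and Il1r2 have 2 high and 2 low mice in each group, whereas S100a8 and S100a9 are low in irradiated mice 1 and 4 alone.

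The design compares irradiated with sham tumours. The groups overlapped for all 7 genes; over all genes they did not overlap for 816, or 3.68%. Retnlg averaged 7.24 ± 0.47 (SD, n = 4) in sham mice against 6.34 ± 1.47 (SD, n = 4) after irradiation, a difference of -0.90 (irradiated minus sham, log2). S100a8 was 11.91 ± 0.39 and 11.05 ± 1.26, a difference of -0.86, and S100a9 was 11.70 ± 0.39 and 10.90 ± 1.16, a difference of -0.81. For each of these 3 genes the SD of the irradiated group exceeded the size of the difference, and that of the sham group was below it. The differences of the receptor genes were smaller, each below the SD of either group. Cxcr2 was 8.36 ± 1.38 and 8.03 ± 1.81, a difference of -0.33, and Il1r2 was 10.27 ± 0.83 and 10.07 ± 0.78, a difference of -0.20. Csf3r was 8.63 ± 0.60 and 8.75 ± 0.71, and Trem1 10.04 ± 0.37 and 10.10 ± 0.11, with differences of 0.12 and 0.07. Thus 5 of the 7 were lower on average after irradiation, where 57.8% of all genes were, and the median difference was -0.33 against -0.03 over all genes. That count turned with single mice: 3 of the 7 were lower without sham mouse 1, sham mouse 4 or irradiated mouse 4, and 7 without sham mouse 3. The median difference was then 0.03, 0.002, 0.07 and -0.65, in that order.

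Single mice also set the sign of the difference for 4 of the 7 genes. With each mouse left out in turn, the difference of Cxcr2 was -1.002 without irradiated mouse 3 but 0.24 when irradiated mouse 1 was left out. That of Csf3r was -0.21 without irradiated mouse 3 but 0.31 with irradiated mouse 4 left out, that of Il1r2 from -0.54 without sham mouse 3 to 0.07 without irradiated mouse 4, and that of Trem1 from -0.10 without sham mouse 3 to 0.19 without sham mouse 4. The differences of S100a8 (-1.29 to -0.44), S100a9 (-1.21 to -0.46) and Retnlg (-1.55 to -0.37) kept their sign, each lowest without irradiated mouse 3 and nearest to 0 without irradiated mouse 4, or mouse 1 for Retnlg. In limma fitted over all genes, 0 of 22180 (0%) passed an adjusted p of 0.05, the 7 included, and 1347 (6.07%) had an unadjusted p under 0.05, none of the 7 among them.

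Pearson correlations over the 8 arrays were computed for the 21 pairs of the 7 genes, as a description with no p. All 21 were above 0, with a median of 0.71 and a range from 0.05 to 0.99, and 12 were 0.7 or more; Spearman's rho had a median of 0.71. The points of a pair share the array, and thus the make-up of the sort in that mouse. S100a8 and S100a9 gave the closest pair, with r = 0.99 (rho 0.95), and 0.95 without the 2 arrays farthest from the S100a8 median. The receptors Cxcr2, Csf3r and Il1r2 formed the other close set. Cxcr2 correlated with Csf3r at 0.92 (rho 0.76) and with Il1r2 at 0.92 (rho 0.81), and Csf3r with Il1r2 at 0.91 (rho 0.81). Without the 2 arrays farthest from the median of the first gene of each pair, these were 0.96, 0.92 and 0.94. Those arrays were irradiated mice 1 and 3 for the pairs with Cxcr2, and sham mouse 1 and irradiated mouse 3 for Csf3r with Il1r2. High and low arrays of Cxcr2 remained in each case, so these values cannot show whether r rests on that split. Because the arrays fell on either side of a gap in Cxcr2, with 4 on each side, r was not computed within a side.

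Between the 2 sets the correlations were looser and rested more on single arrays. Cxcr2 correlated with S100a9 at 0.84 (rho 0.90) and with S100a8 at 0.78 (rho 0.81). Without irradiated mice 1 and 3, farthest from the Cxcr2 median, these were 0.74 and 0.65. Csf3r and S100a8 stood at 0.58 (rho 0.40), and at 0.38 without sham mouse 1 and irradiated mouse 3, farthest from the Csf3r median. Il1r2 and S100a8 stood at 0.65 (rho 0.48), and at 0.21 without irradiated mice 1 and 4, farthest from the S100a8 median. As different mice were left out, the reduced values of these pairs cannot be set against one another. Leaving out single mice could also raise the correlations between the sets. With each mouse left out in turn, r with S100a8 ran from 0.70 to 0.91 for Cxcr2 and from 0.50 to 0.81 for Csf3r. For Il1r2 it ran from 0.49 to 0.96, so the looseness between the sets itself depended on single mice. Sham mouse 3, with high S100a8 and low Csf3r and Il1r2, was one array that lay off the line. Retnlg correlated with S100a9 at 0.80 (rho 0.86), with S100a8 at 0.74 (rho 0.71) and with Cxcr2 also at 0.74 (rho 0.86). The last was 0.46 without irradiated mice 1 and 3. With Il1r2 it stood at 0.58 (rho 0.62) and with Csf3r at 0.65 (rho 0.55). The r of Retnlg with Csf3r was 0.19 without sham mouse 1 and irradiated mouse 3. Differences between these correlations were not tested. Trem1 followed Il1r2 at 0.77 (rho 0.83) and Csf3r at 0.71 (rho 0.88). Over all 8 arrays it hardly followed the S100 genes, at 0.05 with S100a8 (rho 0.24) and 0.13 with S100a9 (rho 0.45). Single mice mattered here, as r ran from -0.07 to 0.64 with S100a8 and from 0.02 to 0.64 with S100a9 when each mouse was left out. With each group's mean subtracted first the median r was 0.75, so the shared variation lay among mice of the same group.

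**Figure D2:**
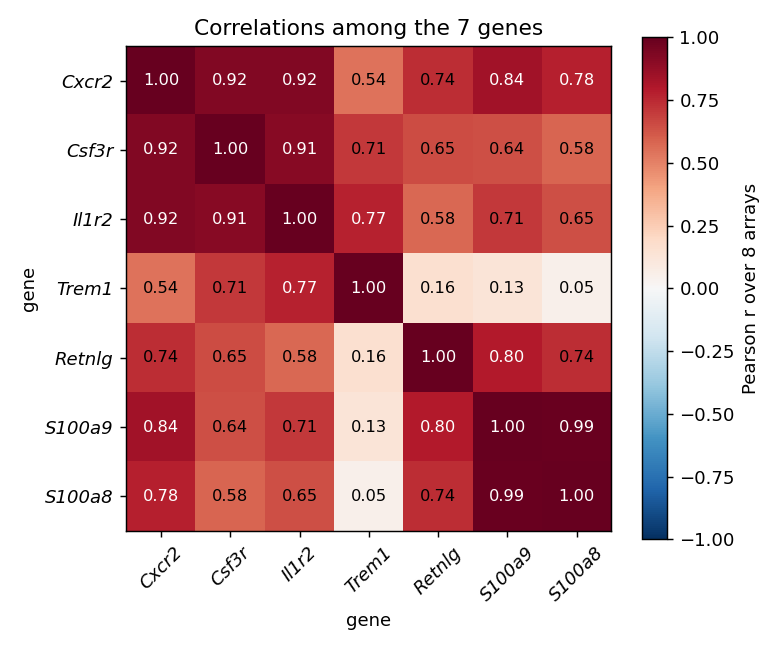
Pearson r over the 8 arrays for every pair of the 7 genes (rows and columns, colour scale from -1 to 1). Cxcr2, Csf3r and Il1r2 form one block at 0.91 to 0.92, S100a8 and S100a9 another at 0.99, and Trem1 is near 0 with the S100 genes over all 8 arrays. With 1 mouse left out, the r of Trem1 with each S100 gene reached 0.64.

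**Figure D3:**
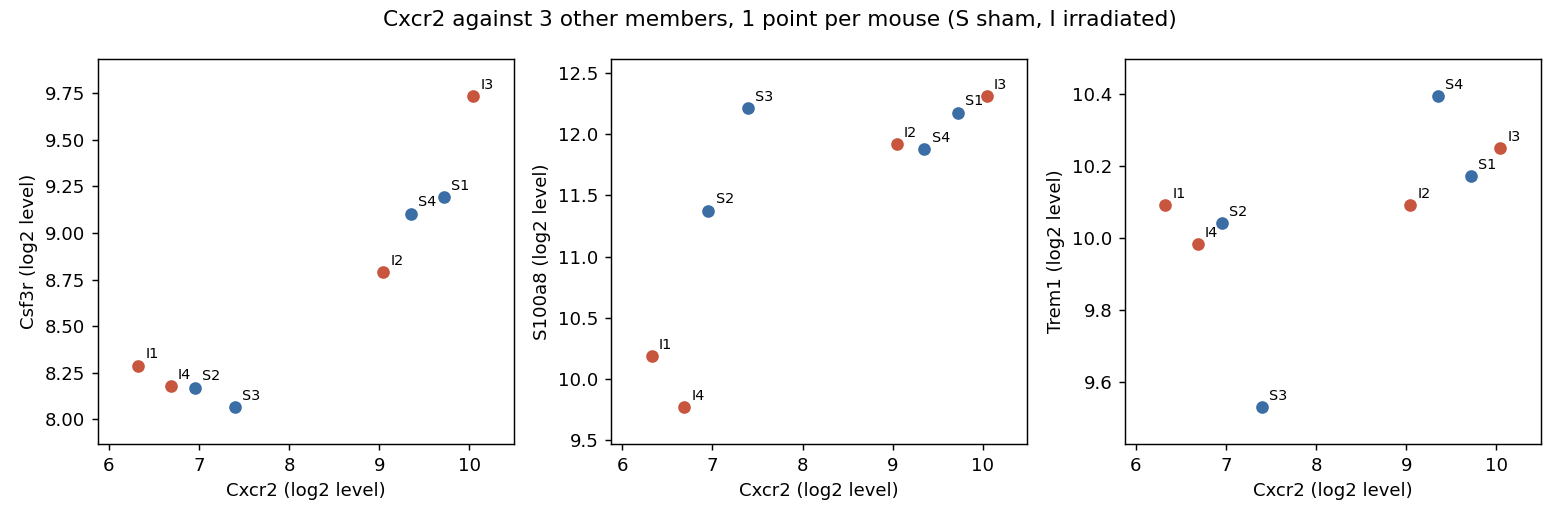
Log2 level of Cxcr2 (x axis) against Csf3r, S100a8 and Trem1 (y axes), 1 point per mouse, S for sham and I for irradiated. The gap in Cxcr2 between 7.40 and 9.05 splits both groups; S100a8 is low in irradiated mice 1 and 4 but not in sham mice 2 and 3, and Trem1 is lowest in sham mouse 3.

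A list of 32 other genes of mature neutrophils, drawn up with earlier results known, had 29 measured members. In the comparison of irradiated with sham mice 0 of the 29 passed, 18 were lower and 11 higher on average, and the median difference was -0.05 against -0.03 over all genes. That balance turned with single mice: 10 of the 29 were lower without irradiated mouse 4 and 25 without irradiated mouse 2. Against Cxcr2 over the 8 arrays, 11 of the 29 had an r of 0.9 or more, where 0.649% of all genes did. They included Stfa2l1, of the stefin family of protease inhibitors, at 11.16, 8.35, 8.26 and 10.58 in sham mice 1 to 4 and at 7.47, 10.30, 11.30 and 7.07 in the irradiated mice (r = 0.98). The stefin A genes are near-identical copies that a probe set may not separate. Hdc, which encodes the enzyme that makes histamine, stood at 9.18, 6.88, 6.86 and 9.17 and at 6.90, 8.78, 9.63 and 6.83 (r = 0.98), and G0s2, whose product restrains fat breakdown, at 9.92, 7.71, 7.47 and 9.74 and at 7.45, 9.49, 10.76 and 7.57 (r = 0.97); both were named after their values were seen. For all 3 the high arrays were those of Cxcr2, and the 2 groups again held 2 high and 2 low mice each.

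The other 8 of the 11 were Asprv1, Cxcr1, Hcar2, Ifitm1, Il1f9, Mmp9, Mrgpra2a and Steap4. Cxcr1, the sister receptor of Cxcr2, was dimmer, at 4.63 to 5.86 in sham and 4.42 to 5.67 in irradiated mice, with r = 0.91. Other members did not follow Cxcr2. Among them Ly6g, also dim, had r = 0.24. Mmp8, the neutrophil collagenase gene, stood at 8.59, 8.78, 8.61 and 8.50 in sham mice and 9.10, 8.49, 8.00 and 7.99 in irradiated mice (r = -0.40), and Cd177, a surface antigen gene of a neutrophil subset, had r = -0.79. Wfdc21, a gene of the whey acidic protein family, had the largest average difference of the list, -1.26 ± 0.66 (SE), at 9.36, 8.16, 10.14 and 8.64 in sham and 6.74, 8.24, 9.70 and 6.59 in irradiated mice. Like S100a8 it was high in sham mouse 3 and lowest in irradiated mice 1 and 4. Stfa1 differed by -0.82 ± 0.90, with the groups overlapping, and by -0.22 without irradiated mouse 4.

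**Figure D4:**
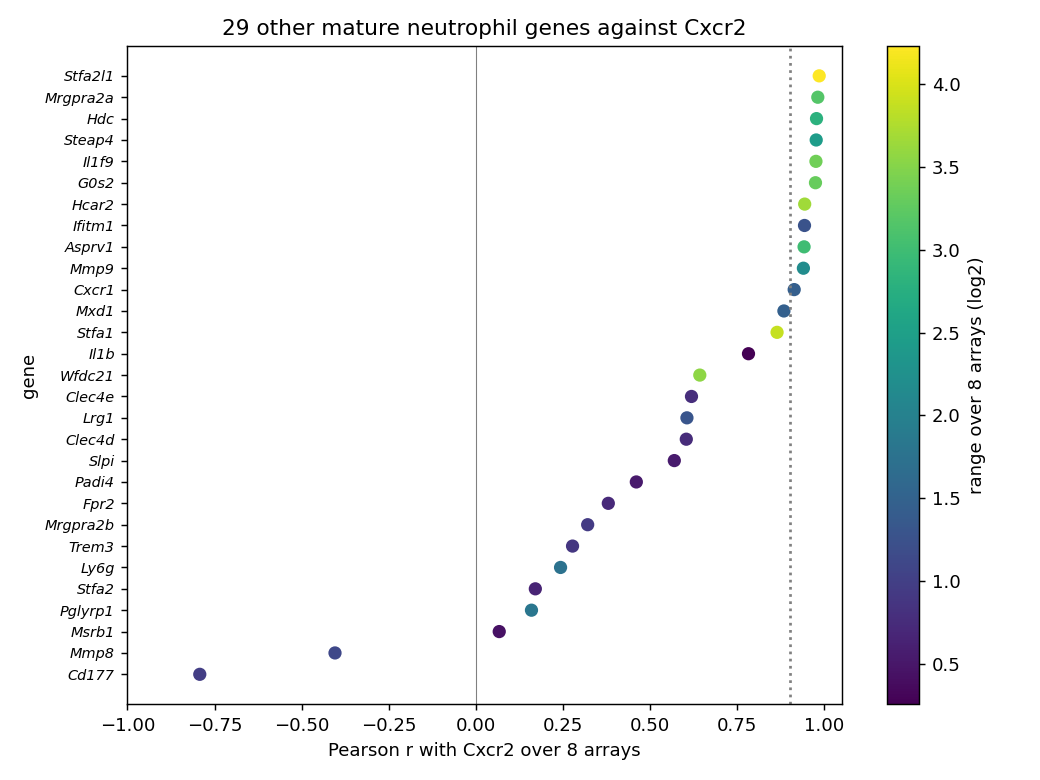
Pearson r with Cxcr2 over 8 arrays (x axis) for the 29 other mature neutrophil genes measured (y axis), coloured by the log2 range over the arrays; the dotted line marks 0.9. The 11 genes at or beyond it run from Cxcr1 at 0.91 to Stfa2l1 at 0.98, and Cd177 lies at the other end at -0.79.

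Genes of neutrophil precursors were read as a separate list. Of 15 listed and measured, 0 had an r of 0.9 or more with Cxcr2, and r ran from -0.44 to 0.68 with a median of -0.11. Only 9 of the 15 had a mean at or above the array median, and a low r of a dimmer gene says little. Camp, the cathelicidin gene, stood at 3.08, 8.02, 10.10 and 3.34 in sham mice 1 to 4 and at 3.11, 3.69, 3.57 and 3.08 in irradiated mice 1 to 4. Ngp, a secondary granule gene, stood at 4.22, 7.78, 10.08 and 4.07 and at 4.19, 4.79, 4.62 and 3.93. Both were high in sham mice 2 and 3, arrays on which Cxcr2, Csf3r and Il1r2 were low. Olfm4, a granule gene of a neutrophil subset, had the highest r of the list at 0.68 and stood at 5.53, 4.29, 6.35 and 5.37 in sham mice and at 3.97, 5.17, 6.70 and 4.71 after irradiation; it was named after its values were seen. In the comparison by irradiation 0 of the 15 passed and 13 were lower on average, where 57.8% of all genes were, with a median difference of -0.62 that was -0.17 without sham mouse 3. The mean difference of the list was -0.74, and -0.27 with that mouse left out. The groups did not overlap for 2 of the 15, against 3.68% of all genes: the ficolin gene Fcnb (-0.43 ± 0.17, SE) and the integrin gene Itgb2l (-0.20 ± 0.10), both with means below the array median and named after their values were seen. The first was -0.26 without sham mouse 3 and the second -0.13 without irradiated mouse 1. Without sham mice 2 and 3, an alternative chosen after the data were seen, the mean difference of the 7 mature genes was -0.88 in place of -0.42, and the median r among their 21 pairs was 0.87 in place of 0.71.

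The partners of the 7 gene products were measured on the same arrays. Of a list of 29 ligands, co-receptors, adaptors and transcription factors, all measured, 0 passed, 18 were higher and 11 lower on average, and the median difference was 0.01; without sham mouse 3, 10 were higher and 19 lower. Among the ligands of CXCR2, Cxcl2 averaged 12.21 ± 0.51 in sham mice against 12.39 ± 0.24 after irradiation (SD, n = 4 each). Cxcl3 averaged 11.33 ± 0.51 and 11.46 ± 0.35, and Cxcl1 7.10 ± 0.88 and 7.11 ± 0.85. The levels of these ligands differed between the groups by less than their spread. Across arrays the r with Cxcr2 was 0.90 for Cxcl3, 0.74 for Cxcl2, 0.67 for Cxcl1 and -0.44 for Cxcl5 (n = 8, a description). The 4 highest arrays of Cxcl3 and of Cxcl2, which monocytes and macrophages also transcribe, were those of the receptor gene. Ppbp, a platelet and myeloid CXC chemokine gene, differed by 0.70 ± 0.73 (SE), and by 0.06 without sham mouse 3. Csf3, the gene of G-CSF, lay below the array median at 3.83 ± 0.16 and 3.74 ± 0.15.

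For IL1R2, the decoy, the ligand gene Il1b averaged 12.58 ± 0.13 in sham mice against 12.57 ± 0.06 after irradiation, and the signalling receptor gene Il1r1 6.41 ± 0.55 and 6.16 ± 0.55. Il1r1 ran opposite to Cxcr2 over the arrays, at r = -0.86. For TREM1, the adaptor gene Tyrobp, which encodes DAP12 and is shared by many myeloid receptors, was 12.61 ± 0.02 and 12.58 ± 0.07, steadier than any of the 7. For calprotectin, the receptor gene Tlr4 was 9.23 ± 0.40 and 9.42 ± 0.08, and Ager, the gene of the receptor RAGE, was higher after irradiation by 0.35 ± 0.15 (SE) and its groups did not overlap, at an adjusted p of 0.819 in limma over all genes; the difference was 0.19 without sham mouse 4. Ager was the 1 gene of the 29 whose groups did not overlap, against 3.68% of all genes. Retnla, the resistin-like relative of Retnlg and a marker of alternatively activated macrophages, was 7.07 ± 0.31 and 7.83 ± 0.90, a difference of 0.76 that was 0.35 without irradiated mouse 3.

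Markers of some other cell types moved with or against Cxcr2 from array to array. The mean level of 18 measured T and NK cell genes was 5.37, 7.66, 7.82 and 5.76 in sham mice 1 to 4 and, in the same order, 6.75, 5.36, 5.33 and 6.73 in the irradiated mice, low on each array where Cxcr2 was high; all 18 had an r with Cxcr2 below 0, from -0.88 to -0.48. Cd3e, of the T cell receptor complex, stood at 6.03, 8.26, 9.36 and 6.68 and at 7.18, 6.13, 5.09 and 7.89. The mean of 13 macrophage genes had the same 4 highest arrays as Cxcr2, with irradiated mouse 1 close behind them: it was 9.50, 9.15, 8.99 and 9.67 in sham and 9.40, 9.61, 9.94 and 9.02 in irradiated mice. C1qa, a complement gene of macrophages, stood at 10.55, 9.79, 9.26 and 10.70 and at 9.84, 10.17, 10.78 and 9.38, with r = 0.87 to Cxcr2. The r of the 13 genes with Cxcr2 had a median of 0.78 and ran from 0.12 to 0.89. Vcam1 and Gpnmb, with the largest differences of the list by irradiation, had r = 0.12 and 0.52. The mean of 14 genes of Ly6C-high monocytes varied less, from 10.86 to 11.19 in sham and from 10.55 to 11.21 in irradiated mice, lowest in irradiated mouse 3, the array with the highest Cxcr2, Csf3r, S100a8, S100a9 and Retnlg. The r of these 14 genes with Cxcr2 had a median of -0.60 and ran from -0.89 to 0.55, with Ly6c2 at -0.86. The part of these other cell types in the levels of the 7 genes was not tested.

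Further lists covered other cells that the sort could hold. The mean of 9 B cell genes ran from 4.83 to 6.03 in sham and from 4.59 to 5.22 in irradiated mice, highest in sham mouse 3, with Cd79a, a chain of the B cell receptor, at 5.00 to 6.85 and 4.51 to 5.71. The mean of 10 eosinophil, basophil and mast cell genes stayed between 3.82 and 4.22 over all 8 arrays, and 7 of the 10 had means below the array median. The mean of 9 dendritic cell genes stayed between 6.01 and 6.44. The mean of 14 tumour epithelial, fibroblast and endothelial genes stood at 5.79, 6.53, 7.05 and 6.27 in sham mice and at 6.93, 6.19, 5.97 and 6.71 in irradiated mice. Its 4 lowest arrays were the 4 on which Cxcr2 was high, and the r of its genes with Cxcr2 had a median of -0.65 and a lowest value of -0.85; its part in the levels of the 7 genes was not tested. Of the platelet and erythroid list 3 of 8 genes were measured, with means from 6.12 to 6.79. No gene of these 5 lists passed the adjusted threshold for irradiation.

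**Figure D5:**
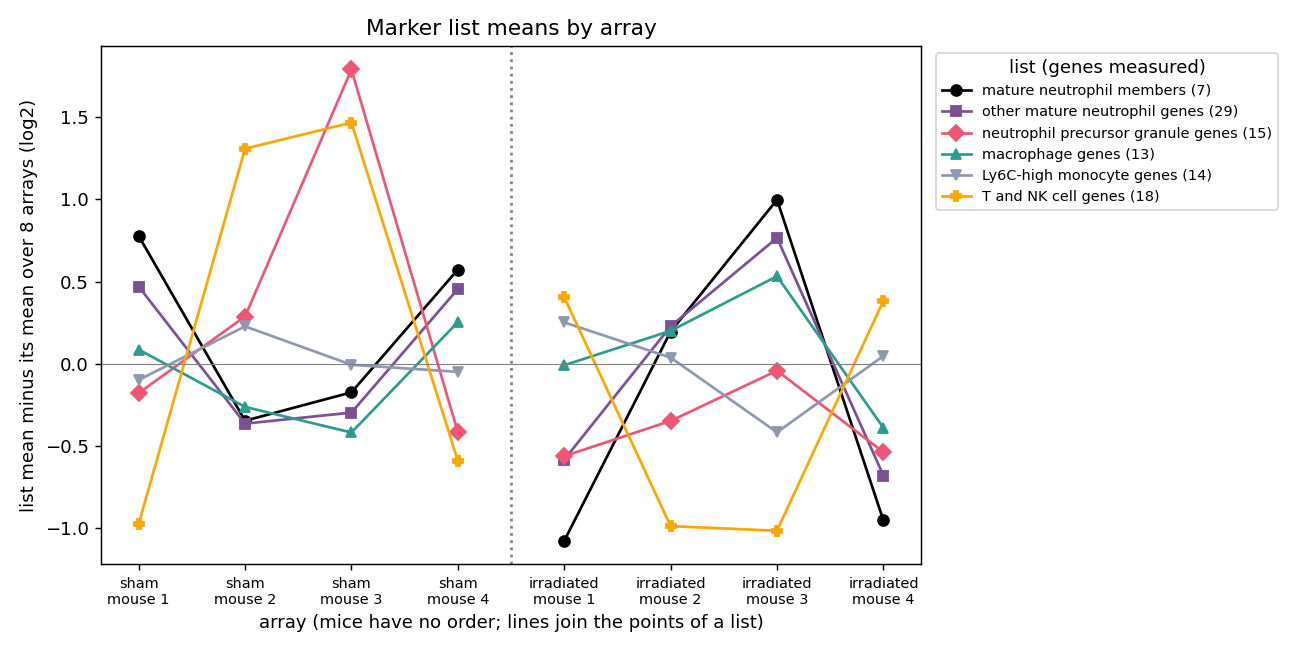
Mean log2 level of 6 gene lists by array, each minus its own mean over the 8 arrays (y axis); the dotted line parts sham from irradiated mice and the lines join points of one list without implying an order. The 7 mature genes and the other mature neutrophil genes run together and opposite to the T and NK cell genes, while precursor granule genes peak in sham mouse 3.

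Finally, the genes whose pattern was most like that of the 7 were found by Pearson r with the mean of their centred levels over the 8 arrays, among 11081 named genes with a mean at or above the array median. An r of 0.9 or more was reached by 74 of these, and by 0.41% of all genes. The 10 most alike, at 0.96 to 0.98, were Rcbtb2, Kptn, Nek6, Slamf9, Stfa2l1, Retreg1, Cln6, Nceh1, Gabarapl1 and Atp6v1c1. Stfa2l1 is the 1 gene of these that the neutrophil lists hold. Slamf9, a myeloid receptor gene, stood at 10.03, 9.14, 9.01 and 9.81 in sham mice and 8.72, 9.74, 10.11 and 8.79 in irradiated mice. Nceh1, which encodes a cholesteryl ester hydrolase, stood at 9.01, 8.25, 8.27 and 8.81 and at 8.00, 8.90, 9.36 and 7.83. Cln6 encodes a membrane protein needed by lysosomes, Atp6v1c1 a subunit of the proton pump that acidifies them, and Gabarapl1 a protein of autophagosomes. The 5 least alike were Septin11, Ptprcap, Perp, Nupr1 and Anxa2, at -0.99 to -0.94. Septin11, of the septin cytoskeleton, stood at 8.89, 9.16, 9.13 and 8.97 in sham and 9.39, 9.03, 8.78 and 9.38 in irradiated mice, the exact reverse of the order of the 7 genes' mean, and Ptprcap encodes a partner of CD45 best known in lymphocytes.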

How the data were processed

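Total RNA of sorted cells, 25 ng per mouse, was amplified and hybridised to 8 arrays, per the labels' protocols. The range of the deposited values shows a log2 scale. Per the submitters' processing notes the authors used RMA and Partek; their versions and settings were not stated. Of 34365 probe set rows, the platform annotation gave 23521 a single symbol, 1814 several and 9030 none. Rows with 1 symbol were kept, the brightest per symbol, which left 22180 genes. Groups and mouse numbers came from the titles; precision is limited by the number of arrays.

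All genes were fitted with limma 3.58.1 under R 4.3.3, using lmFit and eBayes (two-sided; Benjamini-Hochberg adjustment over all genes; threshold 0.05), a procedure tested on simulated data. Differences are irradiated minus sham; SEs are from that fit. Plots were drawn with matplotlib 3.10.9. The 7 genes and all lists were chosen with earlier results of these data known. Named genes are the 7, the list genes with the largest absolute differences, defining markers, and the genes most and least like the 7; partners are named by their role, and any other gene was named after its values were seen. The similarity ranking left out predicted genes, small RNAs, olfactory and vomeronasal receptors and antigen receptor segments. Alternatives were quantile normalization, array medians subtracted, the mean of a symbol's rows, dim genes left out, a trended robust variance, a mouse-number block, Spearman's rho, group means subtracted, each array left out, and, added later, sham mice 2 and 3 left out together and each mouse left out for the gene lists. Protein sequences were not used here.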

Additional observations from a re-analysis of the deposited data

Results flagged for a closer look

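Among 4 mice of a group, a value was singled out when its gap to the nearest mouse exceeded, as a share of the group's range, Dixon's 95% critical value for 4 samples. Of 210 sets of 4 checked (the 7 genes, the list means, and the neutrophil, precursor, partner and similar genes) 8 were singled out, where chance gives about 1 in 20; none of the 7 genes was among them. In sham mouse 3 the precursor granule genes Mpo, Elane, Ctsg and Ms4a3 stood at 7.06, 6.56, 7.51 and 6.27, above the 3 other sham mice at 4.29 to 4.64, 3.89 to 4.04, 3.53 to 3.98 and 4.36 to 4.64. The same mouse had Tlr4 at 8.64, below the others at 9.38 to 9.49. Stfa1 stood at 5.32 in sham mouse 2, below the others at 7.34 to 7.59. Jak2, the kinase gene downstream of the G-CSF receptor, stood at 10.74 in irradiated mouse 4, above the others at 10.32 to 10.37. Cebpd, a C/EBP factor gene, stood at 6.07 in irradiated mouse 2, below the others at 6.60 to 6.68.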

How the results depend on the processing

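The mean difference of the 7 genes, -0.42, was -0.38 after quantile normalization, -0.40 with array medians subtracted and -0.42 with the mean of a symbol's rows. It ran from -0.82 to -0.13 with each mouse left out, lowest without irradiated mouse 3 and nearest to 0 without irradiated mouse 1, and was -0.88 without sham mice 2 and 3, against a spread of 0.80 (pooled SD of the 4 mice). The median correlation among the 21 pairs, 0.71, ran from 0.65 to 0.80 with each mouse left out. The count of genes past the adjusted threshold in limma was 0 in each alternative run except without irradiated mouse 1, where it was 1, the histone gene H2ac15; leaving out each mouse gave 0 to 1. With the mouse number as a replicate block the count was 0, with 1065 genes at an unadjusted p under 0.05 in place of 1347. The deviations of same-numbered mice from their group means correlated at -0.28 to -0.14 over genes. The labels do not state whether same-numbered mice were paired, and these correlations cannot decide it, because each array also carries the make-up of its own sort. With 4 mice a group and no background signal in the files, small differences and dim genes such as Ly6g cannot be resolved.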
